A study of Neurospora crassa with 22 samples.

Results

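The transcripts of 7 subunits of eukaryotic translation initiation factor 3 (eIF3) were followed in pull-downs of the RNA-binding protein GUL-1 from Neurospora crassa hyphae. The 7 genes were those whose proteins, and for some also mRNAs, the study names as partners of GUL-1. They are NCU00040 (eIF3a), NCU01021 (eIF3f), NCU07929 (eIF3h), NCU05889 (eIF3e), NCU09707 (eIF3k), NCU02813 (eIF3m) and NCU08046 (eIF3g), out of 10592 features with counts. The measurements below are of their mRNAs and not of the proteins. All 7 passed the filter on low counts.

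The tagged strain, GUL-1-GFP, carried Pccg1-gul-1-sgfp at his-3 in a background in which the native gul-1 gene was replaced by hph, so that gul-1 was expressed from the ccg-1 promoter and not from its own. The control was the non-tagged wild-type, which shows what binds to anti-GFP beads in the absence of a tag. Hyphae of either strain came from liquid Vs medium (standard growth conditions), and part of the cultures received Nikkomycin Z, a chitin synthase inhibitor, at 1e-05 M in the last hour. RNA was sequenced from the pull-down and from the total extract (input), which gave 8 groups and 22 libraries. Each group had 3 libraries, except for both GUL-1-GFP input groups with 2. Nothing in the labels says whether libraries of a group came from separate cultures, so the p-values measure the spread between these libraries.

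eIF3 is the largest of the translation initiation factors. It binds the small ribosomal subunit, helps to recruit the initiator tRNA complex and the mRNA, and keeps the ribosomal subunits apart until a start codon is found. Its subunits fall into classes by their domains. eIF3a is the scaffold on which other subunits assemble, and it carries a PCI domain, a helical fold used for contacts between subunits that eIF3e, eIF3k and eIF3m share. eIF3f and eIF3h carry MPN domains, which are found as well in the proteasome lid and the COP9 signalosome. eIF3g has an RNA recognition motif. Budding yeast has a reduced eIF3 that contains the a and g subunits but lacks eIF3e, eIF3f, eIF3h, eIF3k and eIF3m. GUL-1 is the N. crassa homologue of yeast Ssd1, a translational repressor that binds mRNAs of cell wall proteins.

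The inputs held few counts of these or any other mRNAs. Total counts lay between 259583 and 28372176 per library, but counts on protein-coding genes lay between 30660 and 48884 in the GUL-1-GFP inputs, against 900166 to 5200733 in the pull-downs of that strain. In wild-type input replicate 3 of the standard medium only 59 counts fell on protein-coding genes. The tagged gene itself, gul-1, exceeded its wild-type pull-down level in GUL-1-GFP, at a log2FC (log2 fold change) of 4.81 under standard growth conditions and 7.76 with Nikkomycin Z (adjusted p = 1.41e-04 and 1.86e-06, edgeR). The TMM factors that scale the libraries were wide, from 0.19 to 5.37, and GUL-1-GFP pull-down replicate 1 of the standard medium had the highest. The hyphal gene hex-1 was found in all 12 pull-downs at 11.8 to 24.3 CPM (counts per 1000000, with library sizes scaled by the TMM method). Of the 3 conidial genes of the marker list, eas and con-10 were lower in the GUL-1-GFP pull-downs over both treatments, at log2FC of -3.94 and -4.52 (adjusted p = 0.0134 and 0.0234), and con-6 was at 0 counts in most libraries. With Nikkomycin Z, the sum of the 3 genes lay at 0.17 to 0.85 CPM in pull-downs of GUL-1-GFP and at 17.5 to 29.2 CPM in those of the wild-type. Fewer cells of a type and less RNA per cell cannot be told apart in such data. A few libraries of the standard medium went against their strain in this respect. GUL-1-GFP pull-down replicate 1 had 2105 counts of eas, against 3 and 20 in the other replicates. Wild-type pull-down replicate 2 had 9, against 1098 and 2731, and wild-type input replicate 2 had none. In gul-1, too, these pull-downs were nearest to the other strain, with 102 CPM in GUL-1-GFP replicate 1 and 22.5 CPM in wild-type replicate 2, although the strains did not overlap. Values without these 3 libraries together are given beside the calls that they change and beside the main results of the standard medium.

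In the main fit, which used TMM scaling, eIF3a was the member called between the pull-downs of both strains. With library sizes from protein-coding counts and Nikkomycin Z, eIF3a was not called, whereas eIF3h and eIF3k were called as lower in GUL-1-GFP. On that scale most of all features were called, and their median log2FC (log2 fold change) was -2.12. eIF3h lay close to this median at -2.10 and eIF3k below it at -3.05. With Nikkomycin Z, the counts of eIF3a were 1343, 419 and 1128 when GUL-1-GFP was pulled down and 57, 38 and 37 in the wild-type control. Scaled to library size, these were 22.3, 17.8 and 19.6 CPM in GUL-1-GFP. The wild-type pull-downs had 2.05, 2.21 and 1.23 CPM. The groups did not overlap, and the lowest GUL-1-GFP library stood well above the highest wild-type library. The means were 19.9 ± 2.30 CPM (SD, n = 3) and 1.83 ± 0.527 CPM (SD, n = 3), a 10.9-fold difference. In the model of all libraries, the log2FC was 3.45 with a standard error of 0.77 (edgeR, quasi-likelihood, Benjamini-Hochberg adjusted p = 0.00388). eIF3a was thus 1 of 7 members that passed in this comparison, against 7.11% of all 7114 features tested that were higher in GUL-1-GFP and 12.4% called in either direction. Its log2FC stood at percentile 96.5 of all features, and the call held on leaving out each of the 22 libraries in turn (adjusted p up to 0.0398). The conidial genes moved with this contrast (eas had a log2FC of -5.57), and their part in the result was not tested.

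**Figure D1:**
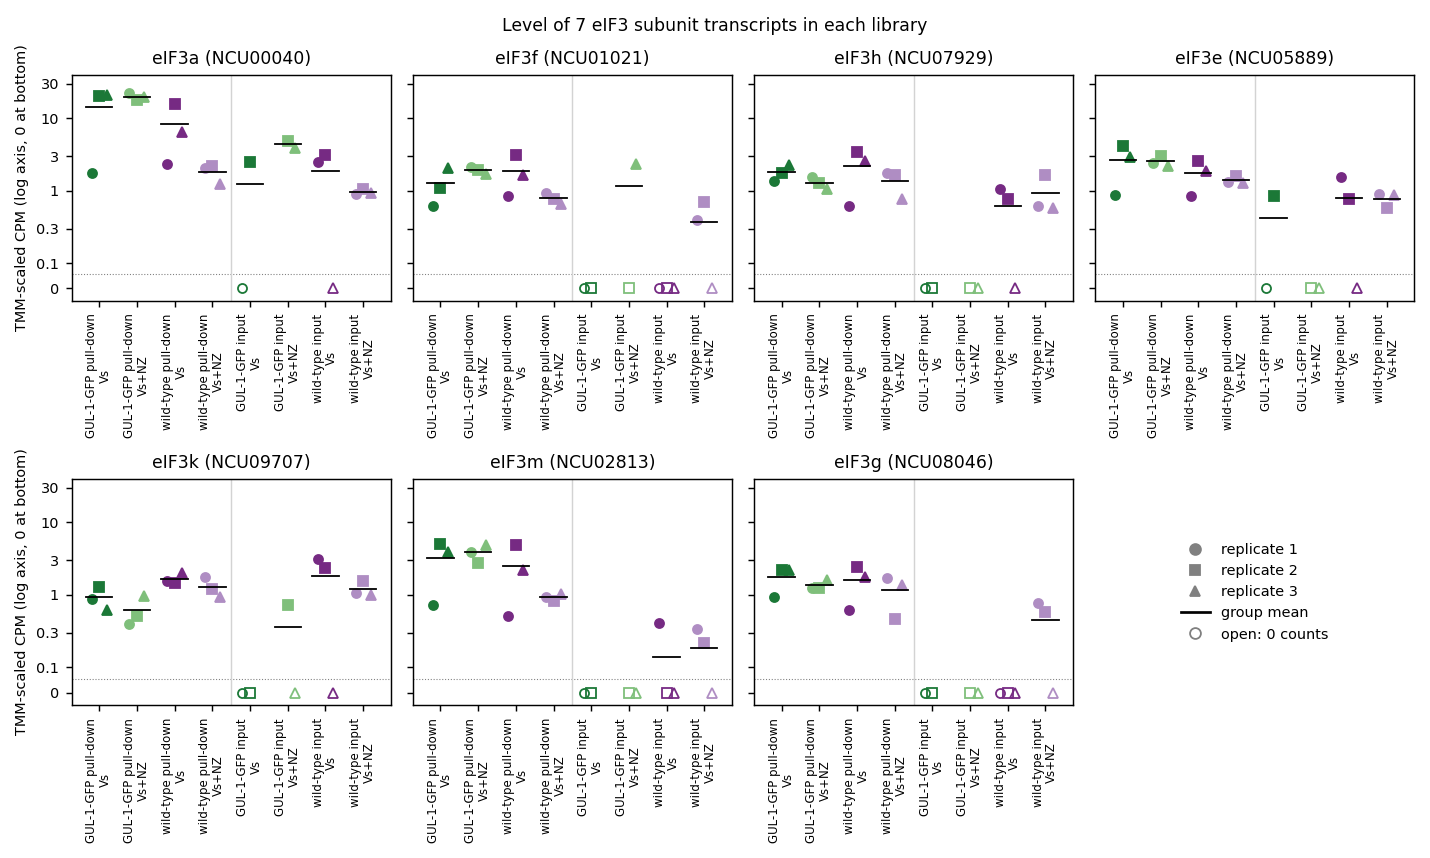
Level of each of the 7 eIF3 transcripts in CPM scaled by TMM (log axis, with 0 drawn at the bottom) in the 22 libraries, by strain, fraction and treatment (Vs, standard growth conditions, and Vs+NZ, with Nikkomycin Z). Symbols are replicates, open symbols are 0 counts and bars are group means. With Nikkomycin Z, eIF3a lay between 17.8 and 22.3 CPM with GUL-1-GFP pulled down and from 1.23 to 2.21 CPM in the wild-type pull-downs.

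Under standard growth conditions the same transcript did not differ between strains beyond the spread. eIF3a had 191, 348 and 1214 counts in the GUL-1-GFP pull-downs, equal to 1.77, 20.2 and 20.7 CPM. The wild-type pull-downs had 42, 400 and 451 counts, equal to 2.35, 15.9 and 6.47 CPM. The groups overlapped, since replicate 1 of GUL-1-GFP was lower than every wild-type library and replicate 2 of the wild-type was close to the remaining GUL-1-GFP libraries. The log2FC was 0.78 (95% confidence interval -0.65 to 2.21, adjusted p = 1.0 from edgeR), and none of the 7 members passed, whereas 2.59% of all features did. At an unadjusted p under 0.05 there were 0 members and 527 features, and DESeq2 called 0 members as well. GUL-1-GFP replicate 1 and wild-type replicate 2 are libraries with conidial counts unlike those of their strain. Without them and wild-type input replicate 2, the log2FC of eIF3a was 2.27 (adjusted p = 0.0256, edgeR), so that the call depends on these libraries. The pull-downs among them hold the lowest GUL-1-GFP and the highest wild-type value of eIF3a. A rise therefore follows from leaving them out and gives no separate support for a difference. With library sizes from protein-coding counts, eIF3a turned to -0.86 (adjusted p = 0.282). Their part in the result was not tested.

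Averaged over both treatments, eIF3a was higher in the GUL-1-GFP pull-downs at a log2FC of 2.11 (standard error 0.51, adjusted p = 0.00693, edgeR), again as 1 of 7 members, against 6.97% of all features that were higher. Without the 3 unlike libraries, eIF3a was at 2.81 (adjusted p = 1.14e-05), and eIF3m (1.84) and eIF3e (1.10) passed as well (adjusted p = 0.00149 and 0.0284). In the standard medium, that fit leaves out the lowest GUL-1-GFP and the highest wild-type pull-down value of each of these transcripts. The rise thus follows from the choice of libraries. The share of all features called in that fit is not given here. For eIF3a, the difference between treatments in the effect of strain was 2.66 (standard error 1.01), with an unadjusted p of 0.0132 and an adjusted p of 0.369 from edgeR. Without the 3 unlike libraries it was 1.08 (adjusted p = 1.0). It is therefore not shown that the difference between strains depended on Nikkomycin Z. None of the 7 members passed this test of treatment by strain, and 0.0281% of all features did.

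**Figure D2:**
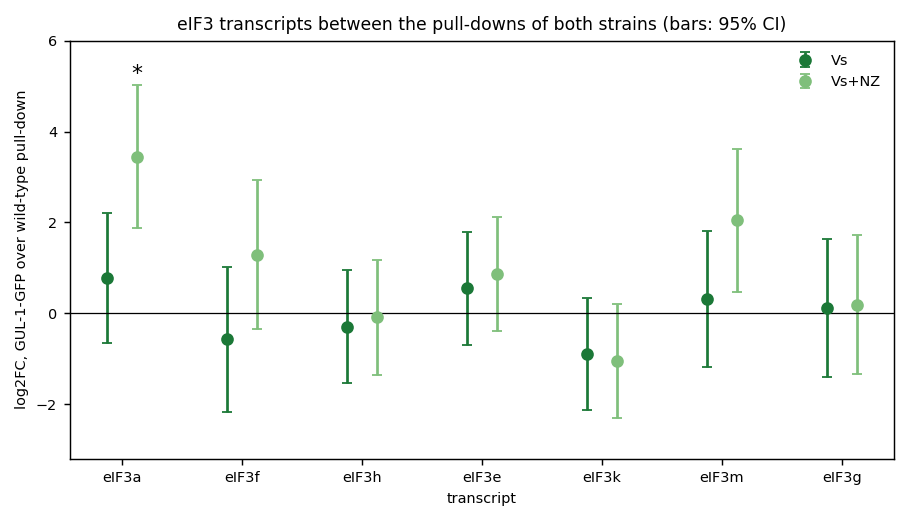
log2FC of each eIF3 transcript in GUL-1-GFP over wild-type pull-down (vertical axis), under standard growth conditions (Vs) and with Nikkomycin Z (Vs+NZ). Bars are 95% confidence intervals from edgeR and the star marks an adjusted p under 0.05, reached only by eIF3a with Nikkomycin Z (3.45) among these 14 values.

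The scale of the libraries matters to this result. With Nikkomycin Z, protein-coding genes received 6.32 to 21.6% of all counts when GUL-1-GFP was pulled down and 1.23 to 2.58% in the wild-type. As CPM of protein-coding counts alone, eIF3a was at 282 ± 33.9 (SD, n = 3) with the tag and 105 ± 32.0 (SD, n = 3) without it. The groups remained apart on this scale, with 258 as the lowest GUL-1-GFP value and 127 as the highest of the wild-type. With library sizes set to protein-coding counts, the log2FC of eIF3a was 1.43 and no longer passed (adjusted p = 0.0738, edgeR), while the median of all features lay at -2.12. It was the only one of 35 alternatives in which eIF3a was not called with Nikkomycin Z. Over both treatments, eIF3a had a log2FC of 0.28 on that scale (adjusted p = 0.579), and the median of all features was -1.84.

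A measure that needs no scaling between libraries is the share of eIF3a in the counts of the 7 transcripts together. In the GUL-1-GFP pull-downs with Nikkomycin Z, the share of eIF3a was 65.9% (63.8 to 68.0%, exact Clopper-Pearson 95% interval), 62.4% (58.6 to 66.0%) and 61.1% (58.8 to 63.3%). In the wild-type pull-downs with Nikkomycin Z it was 19.6% (15.2 to 24.6%), 25.5% (18.7 to 33.3%) and 17.0% (12.2 to 22.6%). The intervals cover no more than the counting error of a plain tally of reads, and the counts may not be one. In each GUL-1-GFP library of this treatment, more counts fell on eIF3a than on the other 6 transcripts together, and in no wild-type library was that so. Under standard growth conditions, the shares were 24.7% (21.7 to 27.9%), 56.7% (52.7 to 60.6%) and 59.7% (57.6 to 61.9%) in GUL-1-GFP. The wild-type had 32.1% (24.2 to 40.8%), 47.0% (43.6 to 50.4%) and 35.1% (32.5 to 37.8%). Replicate 1 of GUL-1-GFP again lay below the wild-type libraries, while the other replicates lay above them. The strains differed in the same direction in their inputs, on few counts. In the GUL-1-GFP inputs with Nikkomycin Z, eIF3a made up 87.0% (66.4 to 97.2%) of 23 counts and 63.0% (42.4 to 80.6%) of 27 counts, and 75.0% (47.6 to 92.7%) of 16 counts in the input of the standard medium that had any. In the wild-type inputs it made up 16.8 to 27.7% with Nikkomycin Z and 28.6 and 44.4% in replicates 1 and 2 of the standard medium. A high share of eIF3a was thus found in both fractions of the tagged strain, except in pull-down replicate 1 of the standard medium. The input shares rest on 16 to 27 counts, with 5 of the 7 members at 0, and 1 input had no counts of the members. The shares are given without a test.

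**Figure D3:**
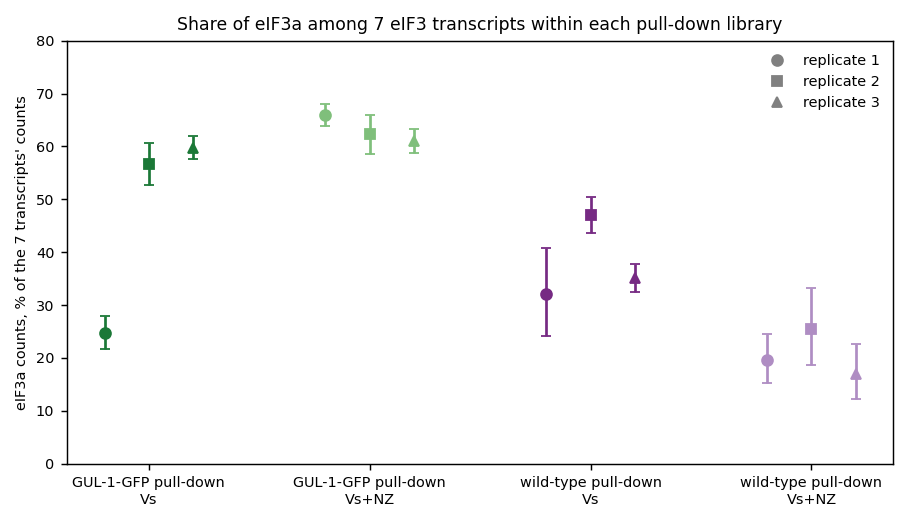
Share of eIF3a in the summed counts of the 7 eIF3 transcripts (vertical axis, percent) in each of the 12 pull-down libraries, by strain and treatment. Symbols are replicates and bars are exact 95% binomial intervals, which cover no more than the counting error of a plain tally of reads. The GUL-1-GFP pull-downs with Nikkomycin Z lay between 61.1 and 65.9% and the wild-type ones between 17.0 and 25.5%.

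Ordered by its mean level, eIF3a was highest in the GUL-1-GFP pull-downs with Nikkomycin Z (19.9 CPM) and under standard growth conditions (14.2 ± 10.8 CPM, SD, n = 3). The wild-type pull-downs of the standard medium followed at 8.25 ± 6.95 CPM (SD, n = 3). The GUL-1-GFP inputs with Nikkomycin Z had 4.37 ± 0.660 CPM (SD, n = 2). The other 4 groups had means between 0.962 and 1.86 CPM. These were wild-type input and pull-down with Nikkomycin Z and both inputs of the standard medium. Neighbours in this order did not pass a test wherever one was made, as for the pull-downs of GUL-1-GFP with against without the drug and for both pull-downs of the standard medium.

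The MPN subunits eIF3f and eIF3h did not pass between the pull-downs. eIF3f had 129, 45 and 99 counts in GUL-1-GFP with Nikkomycin Z, against 26, 13 and 20 in the wild-type. Its CPM values were 1.72 to 2.14 and 0.663 to 0.935, so that the groups did not overlap. The log2FC was 1.29 (95% confidence interval -0.36 to 2.93, adjusted p = 0.309, edgeR). eIF3h had 93, 30 and 60 counts in GUL-1-GFP and 48, 28 and 23 in the wild-type with Nikkomycin Z. On the CPM scale, the eIF3h groups overlapped, with means of 1.29 ± 0.253 and 1.37 ± 0.530 CPM (SD, n = 3 each). The log2FC of eIF3h was -0.09 (95% confidence interval -1.35 to 1.18). Under standard growth conditions, eIF3f had 0.612, 1.10 and 2.08 CPM in GUL-1-GFP and 0.840, 3.14 and 1.65 CPM in the wild-type, and the groups of eIF3h overlapped as well, at 1.37 to 2.24 and 0.616 to 3.38 CPM.

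The PCI subunits did not move alike. eIF3m had 232, 65 and 285 counts in the GUL-1-GFP pull-downs with Nikkomycin Z and 26, 14 and 31 in the wild-type. This equals 3.86, 2.75 and 4.95 CPM against 0.935, 0.814 and 1.03 CPM, with no overlap. The log2FC of eIF3m was 2.05 (standard error 0.77) at an unadjusted p of 0.0128, and it missed the threshold after adjustment (adjusted p = 0.0782, edgeR). It was called in 5 of 35 alternatives, among them the one without the 3 unlike libraries (log2FC 1.94, adjusted p = 0.00854). With library sizes from protein-coding counts, the log2FC of eIF3m was 0.03 (adjusted p = 0.979). eIF3e had 143, 72 and 126 counts in GUL-1-GFP and 37, 27 and 38 in the wild-type. The CPM values of eIF3e were 2.19 to 3.05 and 1.26 to 1.57, again without overlap, at a log2FC of 0.87 (adjusted p = 0.375). eIF3k pointed the other way, with 24, 12 and 55 counts in GUL-1-GFP and 49, 21 and 28 in the wild-type. The CPM values of eIF3k were 0.399 to 0.955 and 0.929 to 1.76, so that the groups overlapped slightly, and the log2FC was -1.06 (95% confidence interval -2.31 to 0.20, adjusted p = 0.266). With Nikkomycin Z, eIF3a, eIF3e, eIF3f and eIF3m were therefore the 4 members whose GUL-1-GFP libraries all lay above the wild-type ones, a pattern met by 25.7% of all features.

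eIF3g, the subunit with the RNA recognition motif, showed no separation. Its counts with Nikkomycin Z were 74, 29 and 94 in GUL-1-GFP and 48, 8 and 41 in the wild-type pull-downs. The CPM values overlapped, from 1.23 to 1.63 in GUL-1-GFP and from 0.465 to 1.73 in the wild-type, and the log2FC was 0.19 (95% confidence interval -1.34 to 1.72). Under standard growth conditions, the 6 members other than eIF3a had log2FC between -0.89 (eIF3k) and 0.55 (eIF3e) between the pull-downs. eIF3k was the one whose GUL-1-GFP libraries all lay below the wild-type, at 0.614 to 1.28 CPM against 1.47 to 2.01 CPM, as did 5.54% of all features. No member lay above the wild-type in all 3 libraries there, against 9.42% of all features. The directions of these small differences hang on the scale. With library sizes from protein-coding counts, eIF3h and eIF3k were lower in GUL-1-GFP in both treatments, at -1.83 and -2.41 without the drug and -2.10 and -3.05 with it. The medians of all features were -1.58 and -2.12 in these treatments. Over both treatments, all members but eIF3a had values below 0 on this scale, where the median of all features was -1.84. eIF3e, eIF3f and eIF3g turned from values above 0 to lower, at -1.08, -1.44 and -1.63, and eIF3m turned to -0.63 without passing (adjusted p = 0.268). eIF3h and eIF3k, below 0 on either scale, were at -1.96 and -2.73.

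The remaining 5 annotated eIF3 subunits lie outside this set, and their transcripts were examined alongside. None of these 5 passed between the pull-downs in either treatment. With Nikkomycin Z the log2FC were 1.68 for eIF3b (adjusted p = 0.12), a core subunit with a beta-propeller, and 0.81 for eIF3c (adjusted p = 0.444), the other PCI-containing core subunit. They were 0.48 for eIF3l, 0.23 for eIF3d and -1.40 for eIF3i (adjusted p = 0.123), a WD40 subunit that binds eIF3b and eIF3g. Their median was 0.48, that of the 7 members 0.87, and that of all features -0.13. Of 12 other initiation genes, 0 passed in either treatment. Among them, eIF2 gamma, which holds the initiator tRNA, had an adjusted p of 0.0909 and eIF5A, a factor that helps translating ribosomes, had a log2FC of 1.20 (adjusted p = 0.113) with Nikkomycin Z. The test of a difference between eIF3a and the remaining subunits was not made.

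**Figure D4:**
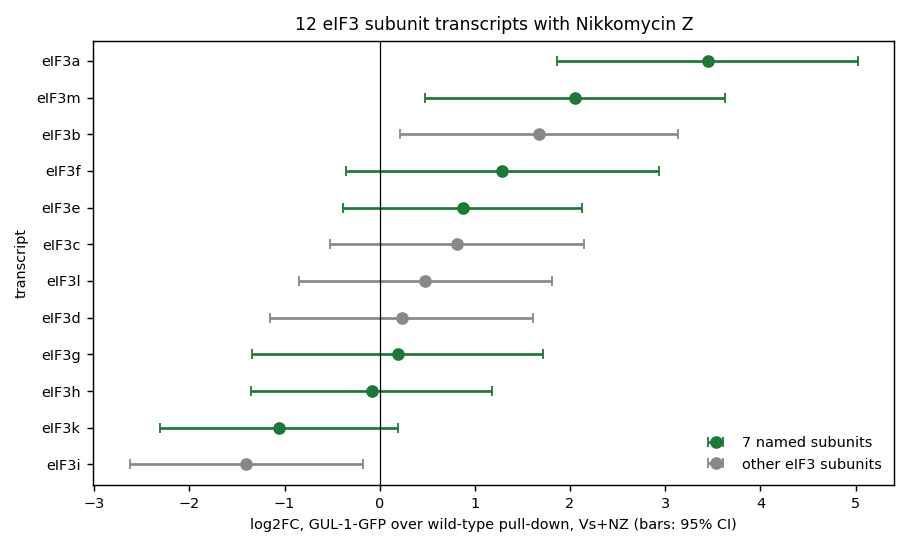
log2FC in GUL-1-GFP over wild-type pull-down with Nikkomycin Z (horizontal axis) for 12 eIF3 subunit transcripts, ordered by value. Points are edgeR estimates and bars 95% confidence intervals, in green for the 7 named subunits and grey for the other 5. eIF3a (3.45) was the transcript that passed after adjustment, and eIF3i lay lowest at -1.40.

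The second question was which of the transcripts were higher in the GUL-1-GFP pull-down than in its own input. In the inputs of the standard medium, replicate 1 had no count for any of the 7 transcripts and replicate 2 had 12 counts of eIF3a and 4 of eIF3e. With Nikkomycin Z, input replicate 2 had 20 counts of eIF3a and 3 of eIF3k, and replicate 3 had 17 of eIF3a and 10 of eIF3f. The remaining members were at 0 in these libraries. Among all values of the count table, 1 occurred 862 times and 2 occurred 1921 times, against 5340 times for 5. Such a low number of single counts is not what a plain tally of reads would give. A floor of 3 counts per library, used here for transcripts not found, therefore covers no more than the counting error of a plain tally.

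eIF3a was higher than in the input under standard growth conditions, with 14.2 CPM in the pull-down and 1.25 ± 1.77 CPM (SD, n = 2) in the input. The log2FC was 3.36 (standard error 0.99, adjusted p = 0.0189, edgeR), which stood at percentile 50.2 of all features, close to their median of 3.32. Without input replicate 1 it was 2.52 (adjusted p = 0.141), and without pull-down replicate 3 it was 3.01 (adjusted p = 0.0586). With Nikkomycin Z, the log2FC of eIF3a over input was 2.19 and missed the threshold (adjusted p = 0.0786, edgeR), since 4.84 and 3.90 CPM were measured in the inputs. It passed in 9 of 36 alternatives, among them the one without the unlike libraries (1.79, adjusted p = 0.0436). Over these alternatives, the log2FC of eIF3a ranged from -0.60 to 4.40. In the main fit it stood at percentile 41.9 of all features. As CPM of protein-coding counts, eIF3a was lower in the pull-downs with Nikkomycin Z (258, 321 and 266) than in the inputs (477 and 379). In the standard medium it had 46.9, 387 and 368 in the pull-downs and 0 and 245 in the inputs on this scale. With library sizes from protein-coding counts, eIF3a passed over input in neither treatment.

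The other members called over input had inputs at 0, where the fitted fold change is no measure of size. Under standard growth conditions 5 of 7 members were higher in the pull-down, against 18.2% of all features. These were eIF3a, eIF3g, eIF3h, eIF3k and eIF3m. In this medium same-numbered pull-downs and inputs varied together, and with the culture as a block 3 members passed, since eIF3g and eIF3k had adjusted p of 0.0614 and 0.0696. Without the 3 unlike libraries 7 of 7 passed, but the share of all features called without them is not given here. That fit kept input replicate 1, although the same-numbered pull-down was left out. Of the GUL-1-GFP inputs of this medium, it was replicate 1 that reached 5.07 CPM in the sum of the 3 conidial genes. Replicate 2 was at 0 CPM, as were the GUL-1-GFP inputs with Nikkomycin Z. The fit without the unlike libraries thus kept an input that shares their trait and had no count of any member. Against the floor averaged over both inputs on the TMM scale, eIF3m was at least 4.08-fold higher, eIF3g and eIF3h at least 2.26-fold and eIF3k at least 1.18-fold. These values are no bounds on the scale of protein-coding counts. eIF3f, at least 1.61-fold higher by the same bound, had an adjusted p of 0.0549, and eIF3e had a log2FC of 2.42 (adjusted p = 0.0694). With Nikkomycin Z 4 of 7 members were higher, against 18.8% of all features. Here eIF3m was at least 5.45-fold, eIF3e at least 3.59-fold, eIF3g at least 1.93-fold and eIF3h at least 1.82-fold higher than the floor. These bounds, too, hold on the TMM scale only. As CPM of protein-coding counts, 3 counts in input replicate 2 with Nikkomycin Z equalled 71.5. The highest pull-down values of this treatment were lower, at 67.2 (eIF3m), 55.1 (eIF3e), 22.2 (eIF3g) and 23.0 (eIF3h). In the main fit, eIF3f (0.73) and eIF3k (0.80) did not pass (adjusted p = 0.604 and 0.553). With the members at their bound on the TMM scale, the median log2FC of the 7 was 1.18 and 0.95. The fitted medians were 8.12 and 8.14 and those of all features 3.32 and 3.69, which also contain inputs at 0. The number of members called depended on single inputs. It was 0 without input replicate 1 and 1 without replicate 2 of the standard medium, and 1 and 0 without input replicates 2 and 3 with Nikkomycin Z. With library sizes from protein-coding counts, 0 members passed in either treatment.

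The wild-type pull-downs held all 7 transcripts too. None of the members passed in wild-type pull-down over input, with or without the unlike libraries, where 0.45% of all features passed under standard growth conditions and 0% with Nikkomycin Z. At an unadjusted p under 0.05 there were 3 and 1 members, and 954 and 247 features. DESeq2 called 1 and 0 members. Under standard growth conditions, eIF3f and eIF3g had no counts in the 3 wild-type inputs and 15, 79 and 115 counts (eIF3f) or 11, 62 and 122 counts (eIF3g) in the pull-downs (adjusted p = 0.0698 and 0.0675, edgeR). Without the unlike libraries, these adjusted p were 0.246 and 0.24, and the log2FC of eIF3a over input was 0.96 in place of 1.66. As 1 of these inputs was nearly empty, no bound on the fold is given. With Nikkomycin Z the wild-type inputs carried 5 to 37 counts of each member in replicates 1 and 2, and replicate 3 had none of eIF3f, eIF3g and eIF3m. The highest log2FC there was 2.23 for eIF3m and the lowest 0.11 for eIF3k. Tested as the interaction of strain and fraction, 0 of 7 members differed under standard growth conditions (2.21% of all features), with 2 members and 1272 features at an unadjusted p under 0.05. DESeq2 called 0 members there, as did the fit without the unlike libraries, in which eIF3a was at 2.77 (adjusted p = 0.133). With Nikkomycin Z 1 of 7 did, against 9.17% of all features that were higher in GUL-1-GFP. This was eIF3e, at 0 counts in both GUL-1-GFP inputs and 16, 13 and 12 counts in the wild-type inputs (adjusted p = 0.0409, edgeR). The GUL-1-GFP inputs were shallower, at 41941 and 44869 protein-coding counts against 255490 to 430811. On the TMM scale, eIF3e in the wild-type inputs was at least 1.1-fold above the floor of the GUL-1-GFP inputs. The call was lost on leaving out any 1 of 13 of the 22 libraries (adjusted p up to 0.173). The interaction of eIF3a was 1.70 and 1.27 in the treatments and did not pass (adjusted p = 0.51 and 0.499).

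Nikkomycin Z by itself changed none of the 7 transcripts past the threshold in any fraction of either strain. With GUL-1-GFP pulled down, the log2FC lay between -0.54 (eIF3k) and 0.60 (eIF3f), with 0% of all features called, and 0 members and 301 features had an unadjusted p under 0.05. For eIF3a it was 0.49 (95% confidence interval -0.93 to 1.91). In the wild-type pull-downs, the 7 values were between -2.18 (eIF3a) and -0.35 (eIF3e), all below 0, and 0.0422% of all features were called. eIF3a fell from 8.25 to 1.83 CPM in its group means there, at an unadjusted p of 0.0063 and an adjusted p of 0.241 (edgeR), hence without passing. The standard-medium mean was carried by replicate 2, one of the unlike libraries, with 15.9 CPM, as replicates 1 and 3 had 2.35 and 6.47 CPM. Without the unlike libraries the log2FC of eIF3a was -1.24 (adjusted p = 0.392), and eIF3e and eIF3g were at 0.06 and 0.05. In the inputs no member passed with the drug (1.55% of all features passed for GUL-1-GFP, and 0.998% for the wild-type). Between the inputs of the strains, eIF3k was lower in GUL-1-GFP under standard growth conditions, where 2.02% of all features were lower, with 0 counts against 38, 12 and 0 in the wild-type (adjusted p = 0.0334, edgeR). With Nikkomycin Z, eIF3e and eIF3h were lower (adjusted p = 0.0413 and 0.0283), against 18.8% of all features. These 3 calls were lost without 6 (eIF3k), 10 (eIF3e) and 3 (eIF3h) of the 22 libraries when left out singly. eIF3e and eIF3h had 0 counts in the GUL-1-GFP inputs, and eIF3h had 11, 37 and 8 in those of the wild-type. On the TMM scale, the wild-type inputs were at least 2.31-fold (eIF3k), 1.1-fold (eIF3e) and 1.33-fold (eIF3h) above the floor of the GUL-1-GFP inputs. With Nikkomycin Z, eIF3a was not lower in the GUL-1-GFP inputs, with 17 to 20 counts against 13 to 24. Per library size this gave a log2FC of 2.17 (adjusted p = 0.0693). Without the unlike libraries it was 2.44 and passed as higher in the GUL-1-GFP inputs (adjusted p = 0.00879).

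Across the 22 libraries, the mean log2 profile of the 7 transcripts was most like those of NCU03573 (Pearson r = 0.945), NCU02514 (atp-1, a subunit of the ATP synthase, r = 0.934), NCU07735 (r = 0.929), NCU01318 (r = 0.929) and NCU03973 (r = 0.928) among 7107 other features. Of the members, eIF3m (r = 0.944), eIF3h (r = 0.909) and eIF3g (r = 0.908) were nearest to their common profile and eIF3k (r = 0.653) and eIF3a (r = 0.789) farthest from it. These values are a description, as the libraries share depth and the contrast of pull-downs with nearly empty inputs. In the NC12 annotation, the genes of eIF3f, eIF3m and eIF3k each overlap 1 neighbour (NCU01019, NCU02812 and NCU09708), so that their counts could include reads of it where strand was not used, whereas eIF3a, eIF3e, eIF3g and eIF3h overlap none.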

How the data were processed

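RNA of pull-downs and inputs was sequenced in 22 libraries. The authors deposited raw counts per feature, which are whole numbers without normalization, for 10592 features. The submitters' notes name CASAVA 1.8.2, HISAT2 2.1.0 and StringTie 1.3.3b, whereas the study's methods name Tophat and HTSeq with unique alignments, so the counter is uncertain, and the genome build is not given in the sources used here. All 22 libraries were used, and GUL-1-GFP inputs that the study excluded were not analysed here. For inputs of the tagged strain without the drug, titles read as pull-downs, and the fraction labels, which say total RNA, were followed. Names and overlaps come from RefSeq's NC12 table, which holds 10590 of the 10592 identifiers.

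Counts were normalized by TMM and filtered with filterByExpr (minimum count 10), and 7114 features were tested in one model of 8 groups with edgeR 4.0.16 in R 4.3.3 (quasi-likelihood test, Benjamini-Hochberg adjustment over all features, threshold 0.05). Transcripts at or under 3 counts in each library of a group were set to 3 for lower bounds. Shares carry exact 95% intervals. The likeness to other genes used log2 CPM with a prior count of 2. All 7 members were named, with the other eIF3 subunits, other initiation genes, gul-1 and markers of hyphae and conidia. Members and lists were chosen with earlier results of these data known. Same-numbered pull-downs and inputs had residual correlations of 0.20 to 0.35 in the standard medium, above 0.1 in all 5 pairs. There the numbers were taken to pair the libraries. With 2 GUL-1-GFP inputs, however, the r of a pull-down with each input are equal and opposite, as 0.312 and -0.312 for replicate 1. Pull-down replicate 3 of that strain had 0.206 with input replicate 2, against 0.205 for the same-numbered pair of replicate 2. In the 5 pairs with Nikkomycin Z the correlations were 0.01 to 0.09, and the numbers were not taken to pair the libraries. The pairing comes from the data and not from the labels. The alternatives were DESeq2 1.42.0, other scalings and filters, separate fits, replicate blocks and each library left out. Protein-coding genes only, protein-coding library sizes and 2 sets of left-out libraries were chosen after seeing the data. The procedure was tested on simulated data.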

Additional observations from a re-analysis of the deposited data

Results flagged for a closer look

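The effect of fraction on eIF3e (NCU05889) differed between the strains with Nikkomycin Z, by a log2 difference of 8.28 in the interaction of strain and fraction (adjusted p = 0.0409 from edgeR). The value is fitted against GUL-1-GFP inputs with 0 counts and is no measure of size. These inputs held 41941 and 44869 protein-coding counts, against 255490 to 430811 in the wild-type inputs. The call was lost on leaving out any 1 of 13 of the 22 libraries (adjusted p up to 0.173). eIF3e had 143, 72 and 126 counts when GUL-1-GFP was pulled down, against 37, 27 and 38 in the control pull-downs and 16, 13 and 12 in the wild-type inputs. Groups held at most 3 libraries, so no outlier test was made within a group.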

How the results depend on the processing

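Of 3946 log2FC of single members under 36 alternatives, 3586 kept their direction and their side of the threshold, 85 lost and 76 gained the call, 196 changed sign without a call and 3 reversed. The latter, with library sizes from protein-coding counts over both treatments, were eIF3f (-1.44), eIF3e (-1.08) and eIF3g (-1.63), and the cause was not tested. Numbers of members called, of 7, changed as follows. For GUL-1-GFP pull-downs against inputs without the drug, 5 became 0 in separate fits, 3 with the culture as a replicate block and 0 with protein-coding library sizes, and ranged from 0 to 7 without 1 library. With Nikkomycin Z, 4 became 2 with the culture block and 0 with protein-coding library sizes, with 0 to 5 without 1 library. In wild-type pull-down over input without the drug, 0 became 1 with DESeq2, 3 with total counts, 2 without the filter and 2 without the 10 highest features, and 0 to 2 without 1 library. The interaction of strain and fraction without the drug gave 1 in place of 0 with total counts and 0 to 1 without 1 library. With the drug, 1 became 3 with DESeq2, 2 with its size factors, 3 with total counts, and 0 with the culture block, protein-coding genes only, protein-coding library sizes or without 3 wild-type libraries of the standard medium (input replicate 3, pull-down replicates 2 and 3), with 0 to 1 without 1 library. Between the pull-downs, 0 became 2 with protein-coding library sizes and 1 without the 3 libraries of unlike conidial genes under standard growth conditions. With Nikkomycin Z, 1 became 2 without the filter, 4 in separate fits, 2 with protein-coding library sizes and 2 without the unlike libraries, with 1 to 2 without 1 library. Over both treatments 1 became 2 without the 3 wild-type libraries, 5 with protein-coding library sizes and 3 without the unlike libraries, with 1 to 2 without 1 library. Between the inputs, 1 became 2 with DESeq2 and 0 with total counts, in separate fits or without the 3 wild-type libraries (0 to 1 without 1 library), and with Nikkomycin Z 2 became 1 without these or with protein-coding library sizes (0 to 3 without 1 library). The replicate number alone as a block gave 5 in place of 4 members for GUL-1-GFP pull-downs against inputs with Nikkomycin Z and changed no other number of members called. In the standard medium, where same-numbered pairs correlated, the culture block left 0 members called in wild-type pull-down over input and in the interaction of strain and fraction, as without it. Over all features, the counts called in GUL-1-GFP over wild-type pull-down with Nikkomycin Z were 884, but 484 with total counts, 2734 in separate fits, 4013 with protein-coding library sizes and 1798 without the unlike libraries. For GUL-1-GFP pull-downs against inputs, 1330 without the drug became 5198 with total counts, 0 in separate fits and 798 with the culture block, and 1369 with the drug became 3768 with total counts and 895 with the culture block.

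The inputs set the limit of depth. Between 5 and 7 of the 7 members had no count in each GUL-1-GFP input, where 3 counts equal 0.626 to 0.950 CPM. This is near the mean of eIF3k in the GUL-1-GFP pull-downs, at 0.927 CPM in the standard medium and 0.621 CPM with Nikkomycin Z. The means of the other members there began at 1.27 CPM (eIF3f, standard medium).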
